A study of Mus musculus with 10 samples.

Results

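Long noncoding RNAs of the nucleus and of growth arrest were followed in quiescent mouse fibroblasts that lacked Lin37 or had it restored. The rule named 8 genes: Malat1, Neat1, Meg3, H19, Lockd, Gas5, Snhg1 and Kcnq1ot1. Symbols were matched to Ensembl gene identifiers, and 7 of the 8 were read among the 45232 gene entries of the expression table. Snhg1 was not analysed here. The genes were chosen by name, with no measured value in the rule, and Lockd was set beside its neighbour Cdkn1b. Lockd also stands on the study's own list of up-regulated genes, which was drawn from these samples, so its direction here is not independent evidence.

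All cells were NIH3T3, an immortalized mouse fibroblast line, and all had been kept for 60 h in medium with 0% FCS, which the labels record as G0. They came from 2 Lin37 knockout clones, each a single clone. Clone 411-27 carried InDels in exon 4 of Lin37 and clone 632-2 in exon 6. By the study's methods both arms of each clone carried a doxycycline-inducible episome and were sorted for GFP. The KO cells expressed luciferase and the rescue cells wild-type Lin37, so a rescue cell is a mutant cell with Lin37 put back and not a parental cell. The exon 4 clone had 2 biological replicates of KO and 2 of rescue, and the exon 6 clone had 3 libraries of each. Of these, library 3 was a technical replicate of library 2 and was averaged with it, giving 4 KO and 4 rescue replicates. Libraries 2 and 3 are called runs of replicate 2 here, but the paper does not state which step was repeated. RNA was rRNA-depleted total RNA, so transcripts that stay in the nucleus or lack a poly(A) tail were counted, and the libraries were made with a kit designed for human RNA.

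The 8 RNAs belong to different classes. Malat1 is retained in nuclear speckles, the stores of splicing factors, and Neat1 is the scaffold on which paraspeckles form. Meg3 and H19 are imprinted transcripts of the maternal allele, and Kcnq1ot1 is a very long antisense transcript of the paternal allele that silences neighbouring genes in cis. Gas5 and Snhg1 are host genes whose introns encode snoRNAs, the guides of rRNA modification, and Gas5 was found as a transcript of growth-arrested cells. Lockd is transcribed downstream of Cdkn1b, which encodes the CDK inhibitor p27Kip1, and DNA at its promoter is known as an enhancer of Cdkn1b in erythroid cells. Lin37 is a subunit of DREAM, a complex that keeps cell-cycle genes silent in G0 and that is recruited to promoters through CHR and E2F elements.

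Values are RPKM, reads per kilobase of gene scaled to the reads of the library, divided by a scaling factor for each library. They are called rescaled RPKM and allow levels to be compared between genes per length. The factors ran from 0.324 to 2.70 and the entries at 0 numbered 7920 to 22034 per library. The number of reads behind a value is unknown because no counts are given. Lin37 itself lay between 0.268 and 0.417 rescaled RPKM in the 5 KO libraries and between 2.12 and 5.11 in the 5 rescue libraries, so the groups did not overlap and lay as labelled. All 8 fibroblast markers examined reached a median of at least 1 RPKM, with a summed level of 470.4 to 828.7 RPKM, whereas the sums of the epithelial, leukocyte, endothelial, neural and muscle markers did not exceed 1.48 RPKM in a library. Which cells hold a transcript cannot be read from bulk RNA: fewer cells expressing it and less RNA per cell cannot be told apart. Tests were made with limma on log2(rescaled RPKM + 0.5) over every gene averaging 0.1 RPKM or more, and a gene was called at a Benjamini-Hochberg adjusted p under 0.05. Meg3 and H19 did not reach that mean, leaving 5 members tested.

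The promoters of Lockd and Cdkn1b are shown first, because the pair lie on chromosome 6 only 3579 bases apart. Lockd also had the largest difference between KO and rescue among the tested members, in the exon 6 clone. In GRCm38 (mm10) Lockd runs from 134929092 to 134956798 on the plus strand (lincRNA, ENSMUSG00000098318) and Cdkn1b from 134920401 to 134925513 on the same strand (protein coding, ENSMUSG00000003031), their start sites being 8691 bases apart. Each window is the RefSeq sequence of GRCm38.p6, from 250 bases before to 50 bases after the annotated start, 5′ to 3′ on the plus strand, at chr6:134928842-134929141 for Lockd and chr6:134920151-134920450 for Cdkn1b. Capitals mark the CHR letters TTTGAA or TTCGAA and the E2F letters TTCCCGC, TTTGGCGC or TTTCGCGC, searched on both strands.
Lockd promoter: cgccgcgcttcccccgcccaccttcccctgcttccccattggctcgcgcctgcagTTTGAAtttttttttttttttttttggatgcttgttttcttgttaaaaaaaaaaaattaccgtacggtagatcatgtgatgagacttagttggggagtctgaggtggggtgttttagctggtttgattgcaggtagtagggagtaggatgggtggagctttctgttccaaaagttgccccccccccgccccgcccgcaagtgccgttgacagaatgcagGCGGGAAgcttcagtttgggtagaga
Cdkn1b promoter: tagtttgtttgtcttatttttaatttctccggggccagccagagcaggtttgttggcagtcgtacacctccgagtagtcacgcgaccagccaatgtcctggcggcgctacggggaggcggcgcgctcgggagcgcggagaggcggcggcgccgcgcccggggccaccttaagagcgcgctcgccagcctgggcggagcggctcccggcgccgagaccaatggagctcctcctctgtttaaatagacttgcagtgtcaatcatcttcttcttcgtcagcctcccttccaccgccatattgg

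The Lockd window held TTTGAA once, 195 bases before the start, and the reverse complement of TTCCCGC once, 24 bases after it. The Cdkn1b window held none of these letters. Of 32851 promoter windows of the same length, 17.9% held TTTGAA, 4.60% held TTCCCGC and 0.457% held both. Any of the CHR letters occurred in 19.2% and any of the E2F letters in 5.33%. The share with a CHR and an E2F match of any spelling was not counted. Among the windows of other members, that of Snhg1 held TTTGGCGC and TTTCGCGC, and a window at a Meg3 start held TTTGAA. The letters CCAAT, counted apart, occurred in 37.4% of windows, 1 time in that of Lockd and 3 times in that of Cdkn1b. A match of letters describes the sequence and does not show that a factor binds there.

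Lockd was higher without Lin37 in the exon 6 clone. Its rescaled RPKM in the 3 exon 6 KO libraries were 1.75, 1.76 and 2.24, against 0.402, 0.511 and 0.257 in the 3 exon 6 rescue libraries. Every KO library of this clone lay above every rescue library, and the second run of replicate 2 was higher than the first in KO and lower in rescue. After averaging of the runs 20.4% of all genes had every KO replicate of this clone above every rescue replicate. The exon 4 KO libraries had 0.277 and 0.502 and their rescue counterparts 0.282 and 0.291, so that the groups overlapped and all 4 values lay within the range of the exon 6 rescue libraries.

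In the exon 6 clone the mean of Lockd was 1.88 ± 0.17 RPKM in KO and 0.393 ± 0.013 in rescue (SD, n = 2 each), a 4.78-fold difference. On the log2(RPKM + 0.5) scale, which understates the change of a gene this low, the difference was 1.41 (SE 0.11, 95% interval 1.13 to 1.69; limma adjusted p = 0.0118). Lockd was the 1 of 5 tested members that passed in this clone, where 1.3% of all 15301 genes tested were called in either direction. Among the 893 tested entries annotated as long noncoding RNA it was likewise the 1 that was called. The call rests on 2 replicates a group. Leaving out any of them leaves 1 replicate in a group, a fit that cannot decide whether the call holds. The log2 difference was then 1.34 to 1.48. The limma adjusted p of Lockd was 0.340 with no minimum level, where 0 of 36276 genes were called, and 0.0516 with the first run of replicate 2 alone. The log2 difference stayed between 1.24 and 1.48 in all of these settings.

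The 2 clones did not give the same size of change in Lockd. For the exon 4 clone the difference was 0.17 (SE 0.23, 95% interval -0.40 to 0.73; limma adjusted p = 0.988), with means of 0.390 ± 0.159 RPKM in KO and 0.287 ± 0.007 in rescue (SD, n = 2 each). No gene of 18751 was called by limma in this clone (0%), where 768 genes, or 4.1%, had an unadjusted p under 0.05. The difference between the clones in the KO change of Lockd was 1.24 (SE 0.22, 95% interval 0.73 to 1.76), with an unadjusted limma p of 0.00067 that was the 11th smallest of 16866 genes and an adjusted p of 0.989. None of the 16866 genes passed the adjusted test of that difference (0%), and 4.06% had an unadjusted p under 0.05, so the difference is given as a value and not as a call. Lin37 itself averaged 2.33 ± 0.30 RPKM in the rescue cells of the exon 4 clone and 4.84 ± 0.12 in those of the exon 6 clone (SD, n = 2 each). Its part in the Lockd values was not tested.

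Over both clones, with the clone as a covariate, the KO minus rescue difference of Lockd was 0.79 (SE 0.24; limma unadjusted p = 0.0096, adjusted p = 0.259), and 3 of 4 replicate pairs were higher in KO. It was not called, and no other member was: 0 of 5 tested members passed limma's adjusted test, and 1 of 5 (Lockd) had an unadjusted p under 0.05. Of 16866 genes 1.69% were called in either direction and 8.79% had an unadjusted p under 0.05. Group means were 1.13 ± 0.87 RPKM in KO and 0.340 ± 0.062 in rescue (SD, n = 4 each), the wide KO spread being the gap between the clones.

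**Figure D1:**
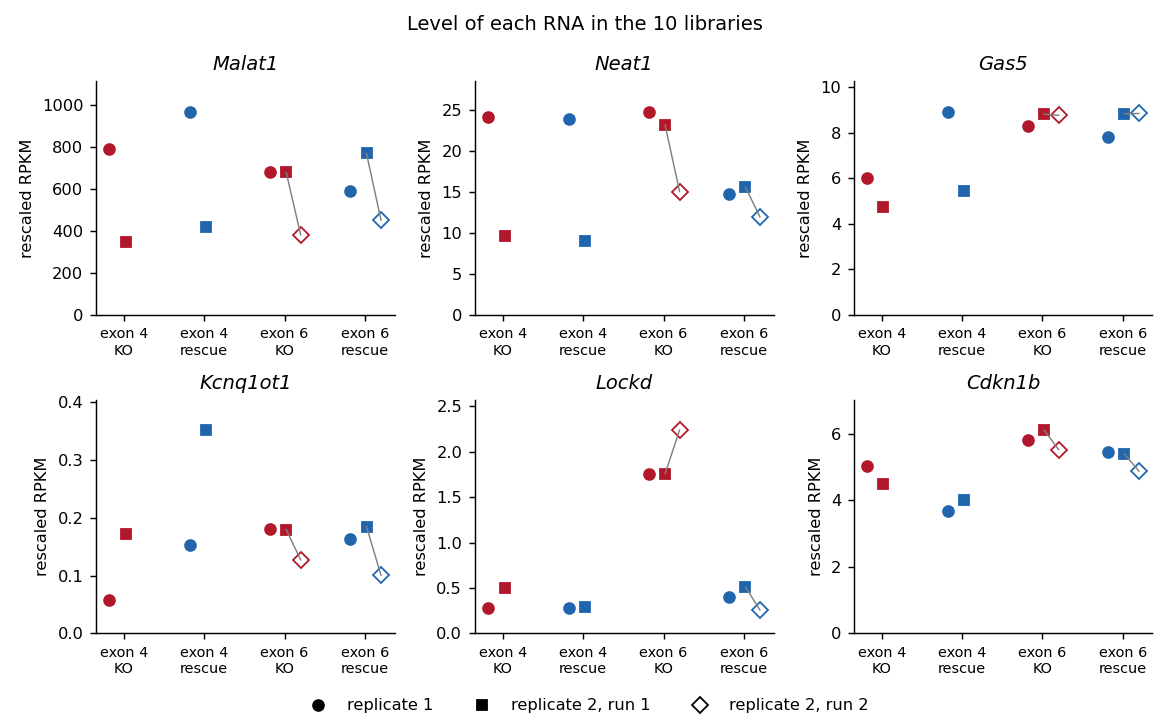
Rescaled RPKM (y axes, linear, from 0) of 5 members and Cdkn1b in the 10 libraries, by clone and by KO (red) or rescue (blue); each point is 1 library, with a grey line joining the first and second run of replicate 2 in the exon 6 clone. Lockd stands apart in the exon 6 KO libraries at 1.75 to 2.24 RPKM, and Malat1 and Neat1 split by replicate in the exon 4 clone.

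**Figure D2:**
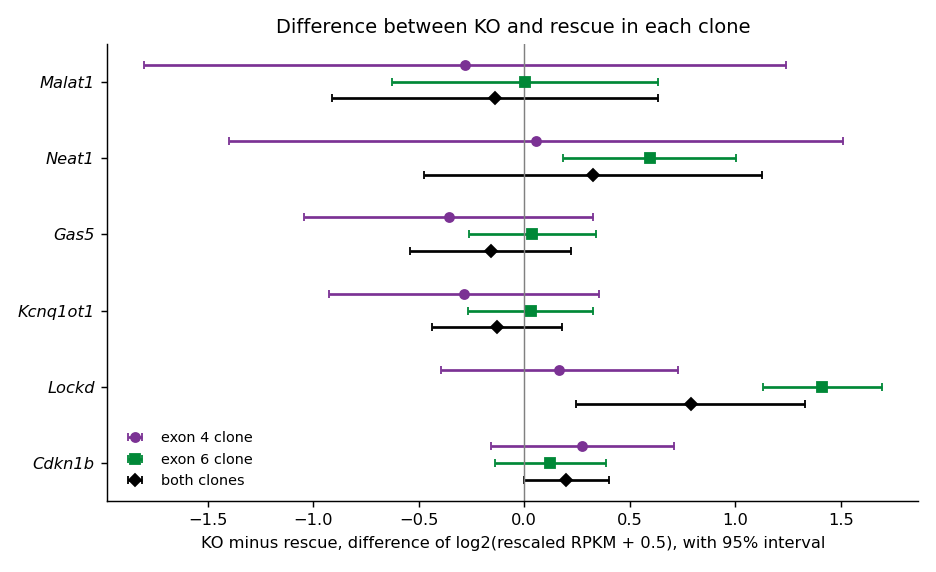
KO minus rescue difference of log2(rescaled RPKM + 0.5) with its 95% interval (x axis) for the 5 tested members and Cdkn1b, in the exon 4 clone (circles), the exon 6 clone (squares) and over both clones (diamonds). The interval for Lockd in the exon 6 clone runs from 1.13 to 1.69, and the exon 4 intervals of Malat1 and Neat1 are the widest.

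Cdkn1b was not called in any comparison of KO with rescue. Of the exon 4 libraries, KO had 5.04 and 4.50 RPKM of Cdkn1b and rescue 3.69 and 4.003. Of the exon 6 libraries, KO had 5.81, 6.12 and 5.53 RPKM and rescue 5.46, 5.41 and 4.88. Each KO library lay above each rescue library within its own clone, by a small margin, and after averaging of the technical runs the same held for 5.19% of all genes. The difference over both clones was 0.20 (SE 0.09, 95% interval -0.003 to 0.40, limma adjusted p = 0.576), so an average increase of more than 0.40 lay outside that interval. In the exon 6 clone the difference was 0.12 (SE 0.10, 95% interval -0.14 to 0.39, limma adjusted p = 0.719). In the exon 4 clone it was 0.28 (SE 0.17, 95% interval -0.16 to 0.71, limma adjusted p = 0.988), so there an increase of more than 0.40 lay inside the interval. The ratio of the KO to the rescue mean was 1.10 for the exon 6 replicates and 1.24 for those of the exon 4 clone.

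The log2 ratio of Lockd to Cdkn1b was taken within each replicate, with 0.5 RPKM added to both. The exon 6 KO replicates had -1.48 and -1.34 and their rescue counterparts -2.72 and -2.68. The exon 4 KO replicates had -2.83 and -2.32 and their rescue counterparts -2.42 and -2.51. The pair of exon 6 KO replicates therefore stood above the other 6, and the exon 4 KO replicates lay on either side of their rescue. Over the 8 replicates the KO minus rescue difference of the ratio was 0.59 (2-sided exact permutation test, p = 0.229 over 70 arrangements, of which the smallest possible p is 0.0286). It was 0.31 with RPKM as deposited (exact permutation p = 0.543) and 0.94 with 0.1 RPKM added in place of 0.5 (exact permutation p = 0.143). Without exon 4 KO replicate 1 the difference was 0.87 and the exact permutation p was 0.0286, the smallest that 35 arrangements give. That replicate had the lowest ratio of all.

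**Figure D3:**
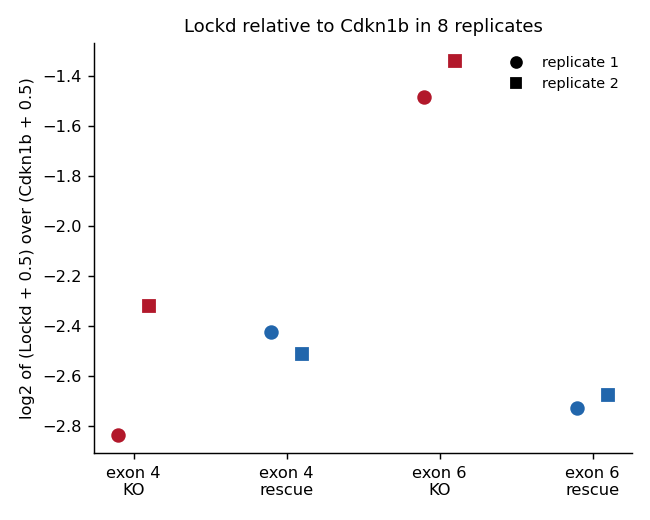
Log2 ratio of Lockd to Cdkn1b (y axis, rescaled RPKM with 0.5 added to each) in the 8 biological replicates, by clone and by KO (red) or rescue (blue). The exon 6 KO replicates lie at -1.48 and -1.34 and the other 6 between -2.83 and -2.32.

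The other genes around Lockd were examined to place its difference in the region. The 3 nearest entries of at least 0.1 RPKM before it were Cdkn1b, 2810454H06Rik and Gpr19, and the 3 after it were Ddx47, Gprc5a and Hebp1, at 54814, 108853 and 180724 bases. None of the 6 was called by limma in either clone or over both: in the exon 6 clone the differences ran from -0.53 for Hebp1, which encodes a heme-binding protein (unadjusted p = 0.021, adjusted p = 0.309), to 0.23 for Gpr19, an orphan receptor gene (adjusted p = 0.604). Hebp1 had 0.452 ± 0.183 RPKM in exon 6 KO and 0.867 ± 0.084 in exon 6 rescue (SD, n = 2 each). Ddx47, an RNA helicase gene and the nearest downstream entry of at least 0.1 RPKM, had 1.37 and 1.54 RPKM in the same groups, a log2 difference of -0.12 (SE 0.12). A noncoding gene on the minus strand, Gm44238, overlaps Lockd and was not analysed here. The strand setting of the read counting is not stated, so reads of the pair cannot be told apart.

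**Figure D4:**
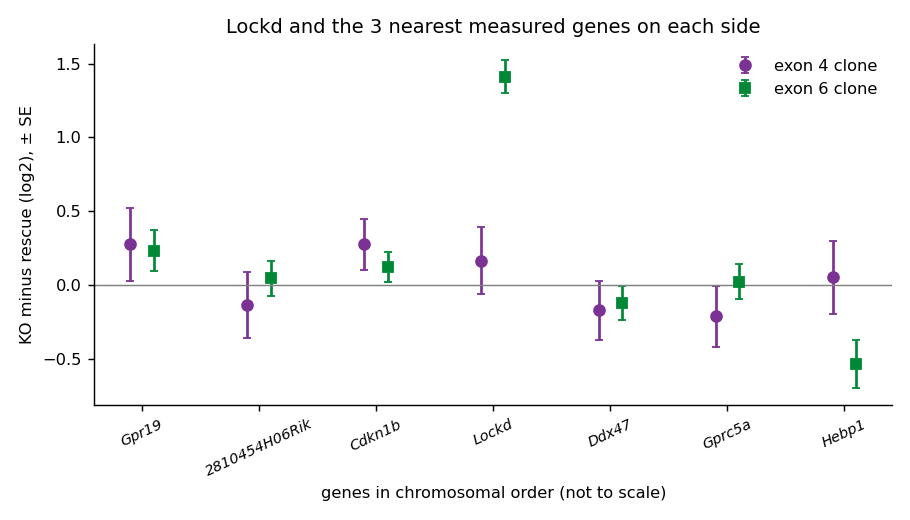
KO minus rescue difference of log2(rescaled RPKM + 0.5) with its SE (y axis) for Lockd and the 3 nearest measured genes on each side, in chromosomal order and not to scale, in the exon 4 clone (circles) and the exon 6 clone (squares). Lockd in the exon 6 clone is at 1.41; the 6 neighbours in that clone lie between -0.53 and 0.23.

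By the correlation of their log2 levels over the 8 replicates, the genes of at least 1 RPKM most like Lockd, of 7550, were Ahctf1 (r = 0.98), which encodes the nuclear pore protein Elys, Tmpo (r = 0.96), which encodes the lamina-associated polypeptide 2, and Pold2 (r = 0.95), a subunit of DNA polymerase delta. These are the highest of many and describe only the pattern, which the exon 6 KO replicates dominate. Their own KO minus rescue differences over both clones were 0.23, 0.42 and 0.44, and none was called (limma adjusted p = 0.576, 0.535 and 0.101). In the exon 6 clone the differences were 0.43, 0.84 and 0.58, and again none was called (limma adjusted p = 0.192, 0.111 and 0.109).

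Malat1 was the most abundant member by a wide margin and was not called between KO and rescue. Its mean of 618.3 RPKM over the 8 replicates ranked 29th among all entries, per length. The exon 4 KO libraries had 791.7 and 348.1 RPKM and their rescue counterparts 970.9 and 419.2. The exon 6 KO libraries had 682.7, 680.4 and 382.8 RPKM and their rescue counterparts 590.7, 770.6 and 452.4. High and low libraries were found in both KO and rescue, with replicate 1 above replicate 2 in both arms of the exon 4 clone. The KO minus rescue difference over both clones was -0.14 (SE 0.34, 95% interval -0.91 to 0.63; limma adjusted p = 0.941). With replicate pairs as a block the SE fell to 0.16 and the limma adjusted p was 0.769. The sign turned to 0.89 with RPKM as deposited, a scaling that moved the median of all genes by 0.67, to 0.55 with quantile normalization, and to 0.13 without exon 4 KO replicate 2 or without exon 4 rescue replicate 1, with no call in any of them. Malat1 lies on chromosome 19 from 5795690 to 5802672 on the minus strand (lincRNA, a single exon).

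Neat1, whose gene lies upstream of Malat1 on the same strand and ends 22036 bases before its start (chromosome 19, 5824708 to 5845478), was high and low in many of the same libraries. Exon 4 KO cells had 24.2 and 9.63 RPKM of Neat1 and the matching rescue cells 23.9 and 8.99. Exon 6 KO cells had 24.8, 23.1 and 15.0 RPKM and the matching rescue cells 14.7, 15.6 and 12.0. In the exon 6 clone the KO libraries run above the rescue libraries apart from the second run of KO replicate 2, which lay among them, and after averaging the runs the replicates did not overlap, an order that 20.4% of all genes shared. In exon 4 cells the replicate number separated the values and KO or rescue did not.

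The KO mean of Neat1 in the exon 6 clone was 21.9 ± 4.0 RPKM and the rescue mean 14.2 ± 0.7 (SD, n = 2 each), a log2 difference of 0.59 (SE 0.16, 95% interval 0.19 to 1.00; limma unadjusted p = 0.0131, adjusted p = 0.256). Over both clones the difference was 0.33 (SE 0.35; limma adjusted p = 0.849). It was higher in KO in 4 of 4 pairs, by 0.02 and 0.09 in the exon 4 pairs and by 0.73 and 0.46 in those of exon 6, and the pairs as a block gave a limma unadjusted p of 0.0503 and an adjusted p of 0.397. Neat1 was thus not called in any of the 3 comparisons.

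Malat1 and Neat1 moved with the replicate and differed between technical replicates. Whether the technical replicates share a library preparation is not stated in the paper. Of the exon 4 replicates, replicate 1 exceeded replicate 2 in Malat1 by 1.18 in KO and 1.21 in rescue on the log2 scale, and in Neat1 by 1.29 and 1.36. Between the 2 runs of replicate 2 in the exon 6 clone, which the labels call technical replicates, Malat1 fell by 0.83 in KO and by 0.77 in rescue, where the median size of such a difference over genes of at least 1 RPKM was 0.18 and 0.23. Neat1 fell by 0.60 and 0.37 between the same runs, whereas Gas5 moved by -0.01 in KO and 0.002 in rescue. The exon 4 replicates also differed in the entries at 0, with 18739 and 10280 in KO and 12382 and 7920 in rescue. Their part in the Malat1 and Neat1 values was not tested.

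**Figure D5:**
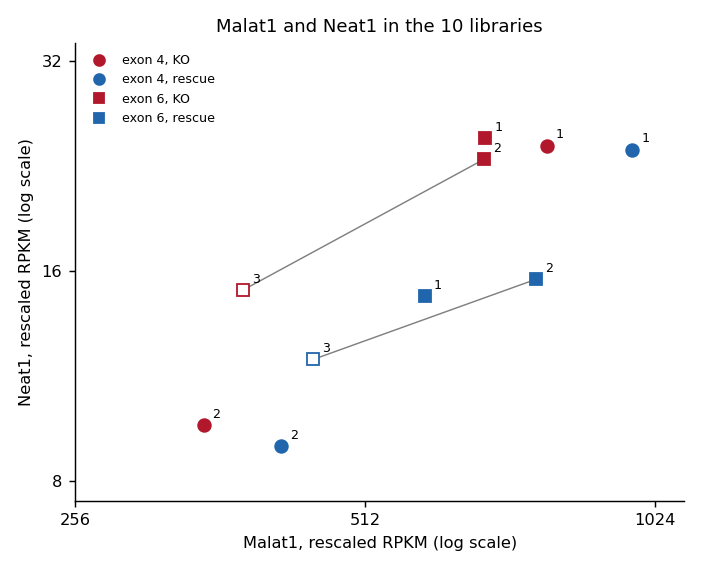
Neat1 against Malat1 in the 10 libraries, both as rescaled RPKM on log scales; circles are the exon 4 clone and squares the exon 6 clone, red KO and blue rescue, with the sample number beside each point and grey lines joining the technical replicates (open squares) to their first run. Neat1 is lowest in the exon 4 replicates 2, at 9.63 and 8.99 RPKM, where Malat1 has 348.1 and 419.2, and both RNAs are lower in run 2 than in run 1.

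The genes most like Malat1 over the 8 replicates were Aspscr1 (r = 0.98), Efna5 (r = 0.97), an ephrin ligand gene, and Luc7l3 (r = 0.96), which encodes a splicing factor. Those most like Neat1 were Ip6k2 (r = 0.98), an inositol hexakisphosphate kinase gene, Zfp207 (r = 0.98), which encodes a spindle-assembly zinc finger protein, and Gm37486 (r = 0.96). None of the 6 was called between KO and rescue, over both clones or in the exon 6 clone, where their differences lay between -0.14 and 0.22.

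None of the listed genes for proteins of the same nuclear bodies was called between KO and rescue. Of 16 paraspeckle proteins all were tested and 0 were called by limma over both clones, with 0 at an unadjusted p under 0.05. Of all genes 1.69% were called and 8.79% had such a p. A list this short can hold no call at that share. Their differences ran from -0.17 to 0.07 with a median of -0.04, beside a median of -0.03 over all genes tested. Among the most abundant, Taf15 and Sfpq, RNA-binding proteins of paraspeckles, had -0.04 and -0.06. Of 11 nuclear speckle proteins 0 were called and 0 had an unadjusted p under 0.05, with a range of -0.14 to 0.13. Srrm2, a scaffold of speckles, had -0.09 and the splicing factor gene Srsf2 had -0.09.

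Gas5, on chromosome 1 from 161034422 to 161038539 on the plus strand (processed transcript), was not called between KO and rescue. Replicates 1 and 2 of the exon 4 clone had 6.03 and 4.73 RPKM without Lin37 and 8.94 and 5.45 with it. The exon 6 libraries had 8.31, 8.82 and 8.77 RPKM without Lin37 and 7.81, 8.84 and 8.85 with it. All 6 exon 6 libraries lay within 7.81 to 8.85, relative to its level the narrowest range of any tested member within a clone, and only exon 4 rescue replicate 1 of the other clone reached them. The difference over both clones was -0.16 (SE 0.17, 95% interval -0.54 to 0.22; limma adjusted p = 0.843), and it turned to 0.79 with RPKM as deposited and to 0.01 without exon 4 rescue replicate 1, with no call. The exon 6 interval, -0.26 to 0.34, was narrower. Zbtb37 overlaps Gas5 on the other strand at 0.270 to 0.627 RPKM.

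The genes most like Gas5 were Cd99l2 (r = 0.97), Zkscan17 (r = 0.95) and Hnrnpa1 (r = 0.95), the last an RNA-binding protein of splicing. The 10 snoRNA entries inside Gas5 were listed at 0 in all 10 libraries, as were all 25 entries of small RNAs inside members that had a row. Over all entries, 578 of 1507 snoRNA entries were listed at 0 throughout. How reads of a gene nested in another were assigned is not stated, so these listed values do not show that the small RNAs were absent. Snhg1 (chromosome 19, 8723475 to 8726443, plus strand) could be followed only through the 8 snoRNA entries in its introns, which lay between 0 and 2.05 RPKM. Of these 8 limma called 0 between KO and rescue, with 0 at an unadjusted p under 0.05. All genes had shares of 1.69% called and 8.79% with such a p. The differences ran from -0.38 for Gm22680 to 0.53 for Snord22, with 6 positive and 2 negative.

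No other host of snoRNAs was called. Of 21 such genes, Gas5 and Snhg1 included, 14 were tested and 0 were called over both clones by limma, with 1 at an unadjusted p under 0.05 and a median difference of -0.04. The shares over all genes were 1.69% called and 8.79% with such a p. Snhg8, the most abundant of them, had 0.06 and Snhg12 had -0.05. Zfas1, another abundant host, had -0.40 (limma unadjusted p = 0.007, adjusted p = 0.207). Within the exon 6 clone limma called 0 of 14 hosts, and 4 had an unadjusted p under 0.05. Of those with such a p only Zfas1 was lower in KO. Such a p was held there by 11.8% of all genes. Of a list of 8 growth arrest-specific and Gas2-like genes, 7 were tested over both clones, 0 were called and 0 had an unadjusted limma p under 0.05. In the exon 6 clone 6 were tested, 0 were called and 2, of opposite sign, had such a p. There 11.8% of all genes had such a p. Gas1, a membrane protein gene and the most abundant of them, at 34.6 to 61.3 RPKM, had a difference of -0.13 and Pmp22, which encodes a myelin protein, -0.18.

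Kcnq1ot1, a single exon of 93092 bases on chromosome 7 from 143203458 to 143296549 on the minus strand (antisense), was low in every library. Without Lin37 it had 0.058 and 0.171 RPKM in replicates 1 and 2 of the exon 4 clone, and with Lin37 0.153 and 0.352. The exon 6 libraries had 0.181, 0.180 and 0.127 RPKM without Lin37 and 0.164, 0.185 and 0.101 with it. KO and rescue overlapped in both clones, and in the exon 4 clone replicate 2 was above replicate 1 in KO and in rescue, the reverse of Malat1 and Neat1. The difference over both clones was -0.13 (SE 0.14, 95% interval -0.44 to 0.18; limma adjusted p = 0.845), and 0.17 with RPKM as deposited, with no call. Kcnq1, the protein-coding gene in which Kcnq1ot1 lies antisense, was at 0 to 0.028 RPKM, below Kcnq1ot1 in every library. With the strand setting of the counting not stated, reads of the pair cannot be told apart.

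Several imprinted genes of the Kcnq1ot1 domain were near 0. Of its 13 genes, Kcnq1ot1 included, 8 were tested and 0 were called over both clones by limma, with 0 at an unadjusted p under 0.05 and a range of -0.14 to 0.28. For all genes the shares were 1.69% called and 8.79% with such a p. Cdkn1c, which encodes the CDK inhibitor p57Kip2, did not exceed 0.068 RPKM in a library and Phlda2, a placental growth gene, did not exceed 0.047. Cd81 and Nap1l4, also listed in the domain, were expressed at 24.0 to 30.5 and 4.72 to 6.55 RPKM and had differences of 0.03 and -0.14. The genes most like Kcnq1ot1 over the 8 replicates were Dennd4c (r = 0.98), Cep170 (r = 0.95) and Ehbp1 (r = 0.94).

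Meg3 and H19, the imprinted transcripts of the maternal allele, were hardly detected. Meg3 (chromosome 12, 109541001 to 109571726, plus strand) was listed above 0 in 9 of 10 libraries but did not exceed 0.047 RPKM. H19 (chromosome 7, 142575529 to 142578143, minus strand) was listed at 0 in 7 of 10 libraries and reached at most 0.037. H19 above 0 was listed only in the exon 6 clone, at 0.011 and 0.037 in 2 of its KO libraries and 0.002 in 1 of its rescue libraries. Levels this low allow no comparison of KO with rescue, and none was tested.

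The partners of H19 and Meg3 in their domains differed from them in level. Igf2, which encodes a growth factor and shares enhancers with H19, lay between 0.037 and 1.38 RPKM with a KO minus rescue difference of -0.25 (limma adjusted p = 0.698). Dlk1, the paternally expressed neighbour of Meg3, lay between 4.62 and 21.5 RPKM with a difference of -0.05 (adjusted p = 0.975), while the maternally expressed Rian did not exceed 0.118. Of 6 genes of the H19 and Igf2 domain 4 were tested, and of 9 of the Dlk1 and Meg3 domain 3 were tested. Of 17 names of imprinted genes known to be co-expressed, 16 had an entry, Gtl2 being a second name of Meg3, and 8 were tested. In all of these lists 0 genes were called over both clones by limma, and 1 of the 8 last named had an unadjusted p under 0.05: Plagl1, a zinc finger gene, at -0.31 (adjusted p = 0.288), picked out after its value was seen. Over all genes 1.69% were called and 8.79% had such a p.

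CDK inhibitors were compared because Cdkn1b belongs to them. Of 7 genes 4 were tested, all 4 had positive differences and 0 were called over both clones by limma, with 0 at an unadjusted p under 0.05. By comparison 1.69% of all genes were called and 8.79% had such a p. Cdkn1a, which encodes p21Cip1, lay between 15.3 and 37.8 RPKM and had a difference of 0.14 (adjusted p = 0.849). Cdkn2c, which encodes p18Ink4c, had 0.50 (adjusted p = 0.623). Cdkn2a and Cdkn2b, at a locus that NIH3T3 cells are known to lack, did not exceed 0.003 and 0.021 RPKM.

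Among the members the order of levels was Malat1, Neat1 (17.4 RPKM on average), Gas5 (7.36), Lockd (0.736), Kcnq1ot1 (0.172), Meg3 (0.015) and H19 (0.004). Neighbours in this order did not overlap over the 10 libraries except Lockd with Kcnq1ot1, which was the higher of the pair in exon 4 rescue replicate 2, and Meg3 with H19. Cdkn1b, at 4.93 RPKM, lay between Gas5 and Lockd. The ratio of the highest to the lowest library was 8.72 for Lockd, 6.08 for Kcnq1ot1, 2.79 for Malat1, 2.76 for Neat1 and 1.89 for Gas5.

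Between the exon 6 and exon 4 clones, over KO and rescue together, limma called 0 of 5 members, with 2 of 5 (Lockd and Gas5) at an unadjusted p under 0.05, where 13.6% of 16866 genes were called in either direction and 30.9% had such a p. Lockd was 0.80 higher in the exon 6 clone (SE 0.24; adjusted p = 0.0579), where the high values were those of its KO replicates, and Gas5 0.43 higher (SE 0.17; adjusted p = 0.122). Cdkn1b was called, 0.34 higher in the exon 6 clone (SE 0.09; limma adjusted p = 0.0394), with means of 5.56 ± 0.32 and 4.31 ± 0.59 RPKM (SD, n = 4 each). That call held without exon 4 KO replicate 1 (adjusted p = 0.0262) and was lost without any other replicate: 0.0855 without exon 4 KO replicate 2, 0.0908 and 0.0660 without exon 4 rescue replicates 1 and 2, 0.102 and 0.104 without exon 6 KO replicates 1 and 2, and 0.106 and 0.104 without exon 6 rescue replicates 1 and 2. Each InDel is represented by 1 clone, so its effect and other differences between the clones cannot be told apart.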

How the data were processed

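RNA-seq of 10 rRNA-depleted libraries was analysed from a single table. The authors mapped reads to mm10 with segemehl after clipping with cutadapt, counted reads per GENCODE vM5 gene with rnacounter, and deposited RPKM values, 1 column per library; the strand setting and the library total were not given in the sources used here. The values hold no read counts, so depth is unknown. Of 45232 entries, 44585 were named from GENCODE M21, on GRCm38, which also gave positions; the deposited RPKM may rest on older exon lengths. RPKM were divided by median-of-ratios factors from 8523 genes of at least 1 RPKM, technical replicates were averaged, and log2(RPKM + 0.5) was tested for genes averaging 0.1 RPKM or more in limma 3.58.1 (R 4.3.3) with trended variance and Benjamini-Hochberg adjustment at 0.05. The clone was a covariate over both clones; each clone was also fitted alone, and an interaction compared them. The labels call the numbered samples biological replicates without saying how cultures were separated, so p-values measure the spread between them.

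Same-numbered KO and rescue replicates deviated together (correlation 0.477 for clone 411-27 and 0.360 for clone 632-2 over 7550 genes), so the number was also used as a block. The 8 members, the gene lists and the cell type markers were chosen with earlier results of these data known. Genes named were the members, Cdkn1b, Lin37, the 3 nearest measured genes on each side of Lockd, small RNAs inside members, up to 4 of the most abundant genes of each list, and the 3 genes most correlated with each member. Genes overlapping a member, Cdkn1c, Phlda2, Cdkn2a, Cdkn2b, Rian, Plagl1, Trp53cor1 and 2900093K20Rik were named after their values were seen. Scripts were tested on simulated data.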

Additional observations from a re-analysis of the deposited data

Results flagged for a closer look

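In groups of 4 replicates, 2 values stood apart by Dixon's criterion, by which about 1 in 20 groups drawn from 1 population are picked out by chance. The groups were KO and rescue for each of Malat1, Neat1, Meg3, Lockd, Gas5, Kcnq1ot1, Cdkn1b and Lin37. Each group held replicates of both clones, so that share need not apply here. Kcnq1ot1 in the rescue group had a gap of 0.898 of its range, exon 4 rescue replicate 2 being at 0.352 RPKM and the other 3 between 0.143 and 0.164. Lin37 in the KO group had a gap of 0.918 of its range, exon 6 KO replicate 1 being at 0.417 RPKM and the other 3 between 0.274 and 0.285, all below the lowest rescue replicate at 2.12.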

How the results depend on the processing

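Leaving out a replicate gave a KO minus rescue difference over both clones of 0.63 to 0.99 for Lockd, 0.11 to 0.65 for Neat1, -0.35 to 0.13 for Malat1 and -0.25 to 0.013 for Gas5. In the exon 6 clone it gave -0.18 to 0.18 for Malat1 and -0.046 to 0.12 for Gas5. Within the exon 4 clone it gave -0.89 to 0.32 for Malat1, -0.62 to 0.74 for Neat1 and -0.017 to 0.35 for Lockd. For the difference between clones in the KO change it gave -0.32 to 0.89 for Malat1 and -0.14 to 1.22 for Neat1. Between the clones it gave -0.21 to 0.33 for Malat1, -0.088 to 0.55 for Neat1 and -0.12 to 0.075 for Kcnq1ot1. The number of members called was then 0 to 1 between clones, and the KO minus rescue difference of the Lockd to Cdkn1b log2 ratio ranged from 0.37 to 0.87.

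With RPKM as deposited, where the median of all genes moved by 0.67 over both clones, 1 member was called over both clones, 4 in the exon 6 clone (Malat1, Neat1, Lockd and Gas5) and 2 between clones, with 1 CDK inhibitor and 3 other long noncoding RNAs. With this scaling most genes were called in the exon 6 clone, 10040 higher and 47 lower of 16361. Over both clones 875 were called higher and 13 lower of 16349, and between clones 2484 and 261 of 16349. The signs that turned were Malat1 at 0.89, Gas5 at 0.79 and Kcnq1ot1 at 0.17 over both clones, Malat1 at 0.75 and Gas5 at 0.59 in the exon 4 clone, and Kcnq1ot1 at 0.26 between clones. Quantile normalization called 1 other long noncoding RNA over both clones and 1 member between clones, and gave Malat1 0.55 over both clones and 0.053 in the exon 4 clone, and Kcnq1ot1 0.14 between clones. With no minimum level or with the first run of replicate 2 alone, 0 members were called in the exon 6 clone. Between clones 1 member, Lockd, was called with a pseudocount of 0.1, with the first run alone, where Kcnq1ot1 was 0.0036, and with the technical replicates as separate libraries. The last setting gave Malat1 -0.071 in the exon 6 clone and -0.0062 between clones. The causes were not tested.

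With replicate pairs as a block, Lockd kept its call in the exon 6 clone (limma adjusted p = 0.0287) at the same difference of 1.41, and the block changed no other call of a member or list. It could not be fitted between clones. Over all genes, the 189 genes called higher in the exon 6 clone became 0 with no minimum level and 67 with a minimum mean of 1 RPKM. They became 69 with the first run alone and 10040 with RPKM as deposited. Of 483 differences of members and Cdkn1b under the alternatives, 422 kept their direction and their side of the threshold. Depth is unknown, and Meg3, H19 and Kcnq1ot1 lie where few reads decide a value.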

Other observations

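Other long noncoding RNAs gave a background for the members. Of a list of 39 names, chosen with earlier results known and some of them aliases of the same gene, 29 had an entry and 18 were tested. Of the 18, limma called 0 between KO and rescue over both clones, with 2 at an unadjusted p under 0.05 and a median difference of 0.002. Among all genes 1.69% were called and 8.79% had such a p. The most abundant were RNAs of polymerase III: Rn7sk, which restrains transcription elongation, lay between 3701 and 9201 RPKM with a difference of 0.44 (limma adjusted p = 0.766), and Rmrp, the RNA of RNase MRP, between 287.5 and 1163 RPKM with 0.93 (unadjusted p = 0.006, adjusted p = 0.202). Trp53cor1, the p53-induced lincRNA-p21 next to Cdkn1a, had 0.33 (unadjusted p = 0.009, adjusted p = 0.246) and was picked out after its value was seen. Of 1182 tested entries annotated as long noncoding RNA, 1 was called over both clones: 2900093K20Rik, an antisense gene also picked out after its value was seen, at 0.846 ± 0.192 RPKM in KO and 0.357 ± 0.075 in rescue (SD, n = 4 each), a difference of 0.64 (SE 0.13; limma adjusted p = 0.0496).

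Between the clones, several partners of the members differed. Over the gene lists of the members' pathways, which share some genes, 87 genes other than members were tested and limma called 21 between the clones, where 13.6% of all 16866 genes were called, and 0 between KO and rescue over both clones, where 4 had an unadjusted p under 0.05. Between KO and rescue 1.69% of all genes were called and 8.79% had such a p. Igf2 was 1.30 higher in the exon 6 clone (limma adjusted p = 0.00134). Igf2r, the receptor that clears Igf2, was lower there, with a difference of -0.65 (limma adjusted p = 0.0103). Cdkn1a was lower in it by a difference of -0.71 (limma adjusted p = 0.019) and Cdkn2c higher by 1.10 (limma adjusted p = 0.0217). Each InDel is 1 clone, so these values describe 2 clones.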
